A study of Mus musculus with 9 samples.

Results

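Genes of the proteasome, its caps, activators and assembly helpers were examined in mouse left ventricle. Members were the genes whose symbol starts with Psma to Psmg and a digit, leaving out pseudogene names, which gave 50 of the 30128 genes in the table. The 50 divide into 8 genes of the core alpha ring, 7 constitutive genes of the core beta ring, 5 immunoproteasome genes, 1 thymus-specific core gene, 6 cap ATPases, 11 cap subunits that are not ATPases, 3 cap assembly chaperones, 4 core assembly chaperones, 4 other regulators of the core, and Psmc3ip, which shares only the name. Polyadenylated RNA was sequenced from 9 libraries in 3 groups of 3. Controls have the genotype given as Wild Type and no treatment label. Both other groups are db/db mice, which lack a working leptin receptor and are used as a model of obesity and type 2 diabetes, and each received an adeno-associated virus of serotype 9. One of them carries the null virus (AAV9_null). The other carries USP28 (AAV9_USP28), a deubiquitinating enzyme that takes ubiquitin off other proteins, under the cTnT promoter, which is active in heart muscle cells. The series asks what excess USP28 does in the diabetic heart. The sources used here do not give strain, age, sex, time after injection or whether replicates are separate animals, so p-values measure the spread between these libraries. Null virus against control changes genotype and virus together, and these cannot be told apart.

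The proteasome is a barrel of stacked alpha and beta rings that cuts proteins marked with ubiquitin, with the cutting sites on a few beta subunits. A cap of ATPases and other subunits binds the ubiquitin chain, unfolds the protein and feeds it into the barrel. Interferon exchanges the cutting subunits for inducible ones, giving the immunoproteasome, whose products are loaded on MHC class I molecules. Heart muscle cells rely on the proteasome to renew sarcomere proteins, and the transcription factor Nfe2l1 raises proteasome genes together when proteasome activity falls.

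The libraries held 35970332 to 56497662 counted reads, of which 15.7 to 19.9% were mitochondrial. Null-virus replicate 1 stood apart: its log2 values lay 0.334 from their group means on average, against 0.144 to 0.214 in the other 8 libraries. Mouse Usp28, on chr9:48985375-49042517, measured 12.5, 13.3 and 13.7 RPKM in the controls, 10.1, 7.57 and 7.78 with the null virus and 9.89, 11.3 and 11.2 with the USP28 virus. All libraries labelled with USP28 virus lay below every control and 1 of them below the highest null-virus library. An exact two-sided permutation test over libraries gave p = 0.2 for USP28 against null virus, where 0.1 is the smallest p possible. The sources used here do not say which species the carried USP28 comes from or whether its reads would count toward the mouse gene, so this gene does not check the labels. Cardiomyocyte markers summed to 24700 to 37900 RPKM over the 9 libraries, and T and NK cell markers to 0.215 to 0.919.

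Levels are RPKM scaled between libraries by a trimmed mean, which allows genes to be set side by side per length. In the controls the cap ATPases had the highest median level, 50.1 RPKM, led by Psmc3 at 138 ± 10.3 (SD, n = 3). The core alpha ring had a median of 24.6 and the constitutive beta ring of 18.2. The Psme1 activator subunit reached 98.4 ± 4.3 RPKM, whereas Psmb9, the inducible subunit of the same group, was the lowest gene tested at 0.539 ± 0.0437. Reads behind a tested gene ranged from 60 to 21723 in a library. Genes with at least 0.5 RPKM in at least 3 libraries were tested, and 48 of the 50 members passed that filter. Psma8, the testis form of an alpha subunit, stayed at 0.185 to 0.457 RPKM, and the thymus form Psmb11 had at most 1 read in any library.

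The 3 comparisons come from 1 limma fit over 14104 genes and share libraries, so their values are given side by side. Against control, 7 of 48 members passed an adjusted p of 0.05 with the null virus, which is 14.6% beside 22.4% of all genes. Of these, 6 were higher (beside 10.4% of all genes) and 1 lower (beside 12.0%). With the USP28 virus 3 of 48 passed against control, or 6.25% beside 11.9% of all genes. Of these, 2 were higher (beside 5.69% of all genes) and 1 lower (beside 6.24%). Between the viruses none of the 48 passed, beside 0.553% of all genes. There 5 members had an unadjusted p under 0.05, and limma voom on the recovered reads also called none. Counted in both directions together, the shares called against control were below those of all genes with all 9 libraries in the fit. The groups share 1 estimate of the spread, so null-virus libraries also bear on the calls of USP28 virus against control. Without null-virus replicate 1 that comparison called 29.2% of members and 29.2% of all genes. The 6 members higher with the null virus were 12.5% of the 48. The median log2 difference of members was 0.18 for null virus against control, -0.15 between the viruses and 0.04 for USP28 virus against control, beside 0.01 for all genes in each. With the null virus 39 of 48 members lay above the control mean, and with the USP28 virus 39 of 48 lay below the null-virus mean. Groups did not overlap for 21 members of null virus and control (43.8%, beside 41.5% of all genes). They did not overlap for 9 members between the viruses (18.8%, beside 23.4%) and for 23 of USP28 virus and control (47.9%, beside 45.8%).

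**Figure D1:**
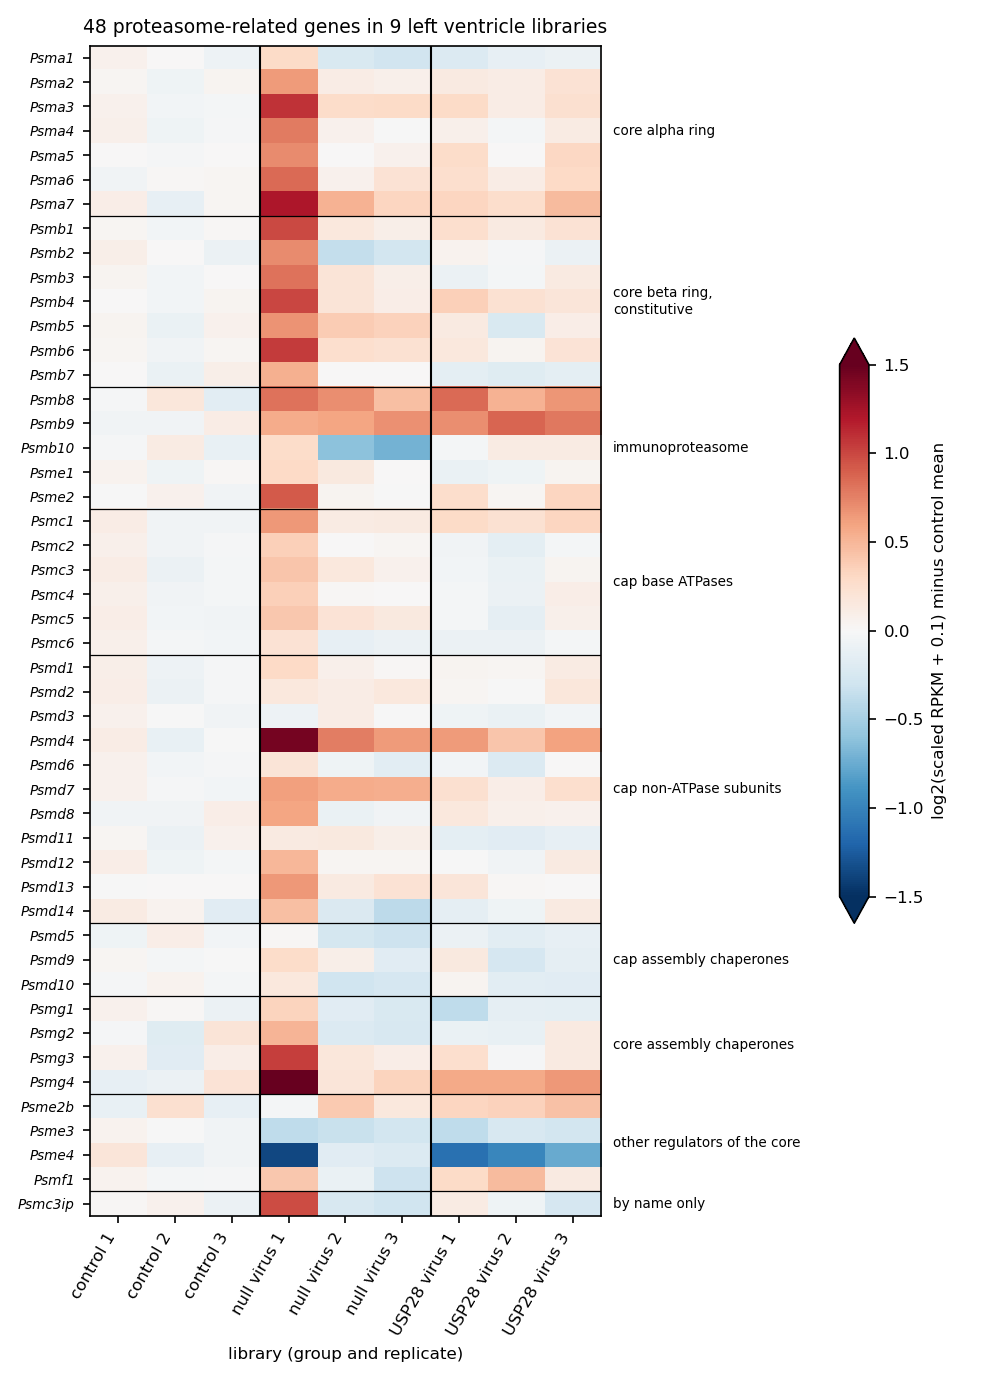
Heat map of log2(scaled RPKM + 0.1) minus the control mean for the 48 tested genes (vertical) in the 9 libraries (horizontal), with black lines between groups and roles and values past 1.5 in either direction drawn in the end colour. The column of null-virus replicate 1 holds the darkest reds, with the core alpha ring at a median of 0.78 and the constitutive beta ring at 0.82 in it.

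Null-virus replicate 1 carried much of the difference from control. It was the highest of the 9 libraries for 38 of 48 members, or 79.2%, beside 27.7% of all genes, and it was so for all 14 tested subunits of the core. The core median lay 0.80 above control in that library on the log2 scale, against 0.13 and 0.08 in null-virus replicates 2 and 3. For the 17 cap subunits these medians were 0.41, 0.11 and 0.03. The same library also departed from its group by gene length. Its median log2 difference from replicates 2 and 3 was 0.33 in the shortest of 4 equal length classes of all genes and -0.24 in the longest, and for members it was 0.54 and 0.28 in those classes. The part of gene length in the members' difference was not tested. Without this library 13 of 48 members passed for null virus against control, 8 higher and 5 lower (27.1%, beside 31.6% of all genes), and the members' median fell to 0.05. Then 3 passed between the viruses, 1 higher and 2 lower (6.25%, beside 6.66%). For USP28 virus against control 14 then passed, 12 higher and 2 lower (29.2%, beside 29.2%). Of all 14104 genes, 1959 were higher and 2157 lower in that comparison, and 2195 and 2265 for null virus against control.

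**Figure D2:**
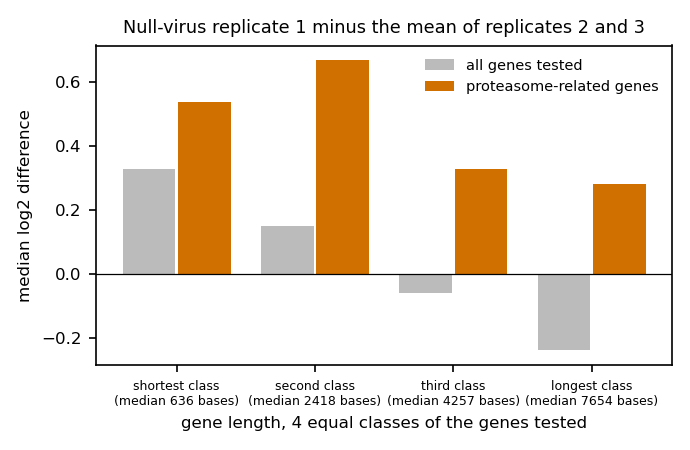
Median log2 difference of null-virus replicate 1 from the mean of replicates 2 and 3 (vertical) in 4 equal classes of the tested genes by length (horizontal), for all genes in grey and proteasome-related genes in orange. All genes run from 0.33 in the shortest class to -0.24 in the longest, while members lie above 0 in every class, with 13, 22, 7 and 6 members from the shortest to the longest.

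In the alpha ring, which forms the gate of the barrel, 1 of 7 tested genes rose with the null virus and none passed in the other comparisons. Counts by role, here and below, are to be set beside the shares of all genes. Against control these were 10.4% higher and 12.0% lower with the null virus, and 5.69% and 6.24% with the USP28 virus. Between the viruses 0.553% passed. Psma7, an alpha ring subunit on chr2:180036373-180042433, measured 26.3, 22.5 and 25.0 RPKM in the controls, 57.2, 35.2 and 30.7 with the null virus and 30.7, 29.4 and 34.1 with the USP28 virus. Both db/db groups lay above every control, and null-virus replicate 1 was the highest library by far. The log2 difference from control was 0.68 (SE 0.21, adjusted p = 0.045) with the null virus and 0.35 (SE 0.21, adjusted p = 0.30) with the USP28 virus. The call was unstable: leaving out any control (adjusted p = 0.081, 0.14 and 0.11 for replicates 1, 2 and 3), null-virus replicate 2 (0.059) or any USP28-virus library (0.069, 0.067 and 0.066), applying no filter (0.094) or fitting the 2 groups alone (0.11) ended it, while without null-virus replicate 1 it held at 0.42 (adjusted p = 0.015). Psma3, next by size at 0.55 (adjusted p = 0.077), passed without that library at 0.28 (adjusted p = 0.017), scaled by library totals (0.035) and with voom (0.048). Psma6 was at 0.38 and Psma4 at 0.28, neither passing. Psma1 ran the other way in 2 of the 3 null-virus libraries, at 15.2, 10.6 and 10.2 RPKM beside 13.0, 12.5 and 11.8 in the controls, and fell by 0.26 without null-virus replicate 1 (adjusted p = 0.028).

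In the constitutive beta ring, 1 of 7 genes rose with the null virus, beside 10.4% of all genes. Psmb5 on chr14:54614120-54617995 encodes the subunit with the chymotrypsin-like site, the one that clinical proteasome inhibitors bind most tightly. Its level was 19.6, 17.8 and 19.9 RPKM in the controls, 30.4, 24.9 and 24.3 with the null virus and 21.0, 16.3 and 20.5 with the USP28 virus. The null-virus libraries lay above all 6 others, and the USP28-virus libraries overlapped the controls. Psmb5 was 0.46 higher with the null virus (SE 0.13, adjusted p = 0.036), and 0.46 lower with the USP28 virus than with the null virus, which did not pass (log2 -0.46, SE 0.13, unadjusted p = 0.0067, adjusted p = 0.14). Against control the call was lost without control replicate 1, 2 or 3 (adjusted p = 0.075, 0.12 and 0.083), null-virus replicate 2 (0.054) or USP28-virus replicate 3 (0.053), with no filter (0.076) and with the 2 groups alone (0.061), and held without null-virus replicate 1 (0.36, adjusted p = 0.038). The gene holds Mir686 and shares 22.2% of its 100-base stretches with Gm3375 or Mir686, so part of its reads could be assigned elsewhere.

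Psmb6 and Psmb7 carry the caspase-like and trypsin-like sites. Psmb6 measured 18.5, 17.6 and 18.5 RPKM in the controls, 37.7, 21.6 and 21.3 with the null virus and 20.3, 18.7 and 21.0 with the USP28 virus. The 3 groups stood in separate ranges, controls lowest and null virus highest, but the null-virus difference of 0.51 did not pass (adjusted p = 0.097). It passed at 0.24 without null-virus replicate 1 (adjusted p = 0.030). Psmb7 measured 20.1, 18.6 and 21.3 RPKM in the controls, 28.9, 20.1 and 20.1 with the null virus and 18.1, 17.6 and 18.1 with the USP28 virus. The USP28-virus libraries were the lowest 3 of the 9, with a log2 difference of -0.34 from the null virus (adjusted p = 0.28) and -0.15 from control (adjusted p = 0.52). Psmb4 was at 0.43 and Psmb1 at 0.41 with the null virus without passing. Psmb2 measured 11.7 RPKM in null-virus replicate 1 and 5.53 and 5.85 in replicates 2 and 3, beside 6.68 to 7.56 in the controls, and fell by 0.32 without that library (adjusted p = 0.019).

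Among the 5 immunoproteasome genes, Psmb8 and Psmb9 rose in both db/db groups against control and the other 3 did not pass. Of all genes, 10.4% were higher with the null virus and 5.69% with the USP28 virus. Psmb8, the inducible stand-in for Psmb5, lies on chr17:34197721-34201454. Its level was 2.78, 3.17 and 2.5 RPKM in the controls, 5.02, 4.59 and 3.87 with the null virus and 5.13, 4.08 and 4.50 with the USP28 virus. All 6 virus-treated db/db libraries lay above the 3 controls and overlapped each other. The log2 difference from control was 0.65 (SE 0.14, adjusted p = 0.013) with the null virus and 0.68 (SE 0.14, adjusted p = 0.019) with the USP28 virus. Between the viruses it was 0.02, with a 95% interval of -0.29 to 0.34. Without control replicate 3 the first call was lost (0.57, adjusted p = 0.055). The second was lost without control replicate 1 or 3 (adjusted p = 0.052 and 0.080) or USP28-virus replicate 1 or 3 (0.088 and 0.062). An exon of Psmb8 overlaps Gm20496 on the other strand, which measured 4.70 to 5.39 RPKM in the controls, 7.05 to 9.13 with the null virus and 7.37 to 8.80 with the USP28 virus.

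Psmb9, the inducible stand-in for Psmb6, lies on chr17:34181988-34187764 next to Tap1, which encodes a peptide transporter subunit. Its level was 0.513, 0.514 and 0.589 RPKM in the controls, 0.836, 0.859 and 0.923 with the null virus and 0.932, 1.07 and 1.0 with the USP28 virus, from 80 to 187 reads. The groups stood in separate ranges, controls lowest and USP28 virus highest, and null-virus replicate 1 was the lowest library of its group. The log2 difference from control was 0.61 (SE 0.13, adjusted p = 0.012) with the null virus and 0.79 (SE 0.13, adjusted p = 0.0086) with the USP28 virus. Between the viruses it was 0.18 with a 95% interval of -0.11 to 0.47 (adjusted p = 0.49). Since Psmb9 is low, a pseudocount of 1 in place of 0.1 took the differences from control to 0.28 and 0.38. With control and null virus fitted alone the null-virus call was lost (0.61, adjusted p = 0.05 after rounding). The start of Psmb9 overlaps Tap1 on the other strand. The sources used here do not give the strand setting of the counting, so reads of Psmb8 and Psmb9 and of their opposite-strand neighbours may not be told apart.

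Psmb10, the inducible stand-in for Psmb7, measured 10.7, 11.8 and 9.95 RPKM in the controls, 13.1, 7.02 and 6.56 with the null virus and 10.6, 11.8 and 11.8 with the USP28 virus. Null-virus replicates 2 and 3 were the lowest of the 9 libraries and null-virus replicate 1 the highest. With all libraries no comparison passed (log2 -0.34 for null virus against control, adjusted p = 0.31; 0.42 between the viruses, adjusted p = 0.38). Without null-virus replicate 1, Psmb10 fell by 0.66 with the null virus (adjusted p = 0.0016) and was 0.73 higher with the USP28 virus than with the null virus (adjusted p = 0.0052).

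Psme1 and Psme2 encode the interferon-inducible ring that opens the barrel without ubiquitin. Psme1 measured 102, 93.7 and 99.2 RPKM in the controls, 121, 109 and 98.4 with the null virus and 91.4, 93.9 and 101 with the USP28 virus. Psme2 measured 16.4, 17.2 and 15.9, then 31.4, 17.0 and 16.4, then 19.8, 16.9 and 20.7 RPKM in the same order of groups. The groups overlapped for both genes and no comparison passed, the largest log2 differences being -0.20 between the viruses for Psme1 and 0.32 for Psme2 with the null virus, where 1 library stood out. Psme2 shares 18.4% of its 100-base stretches with Psme2b, and Psme2b shares 52.0% of its own with Psme2, so these values are uncertain.

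**Figure D3:**
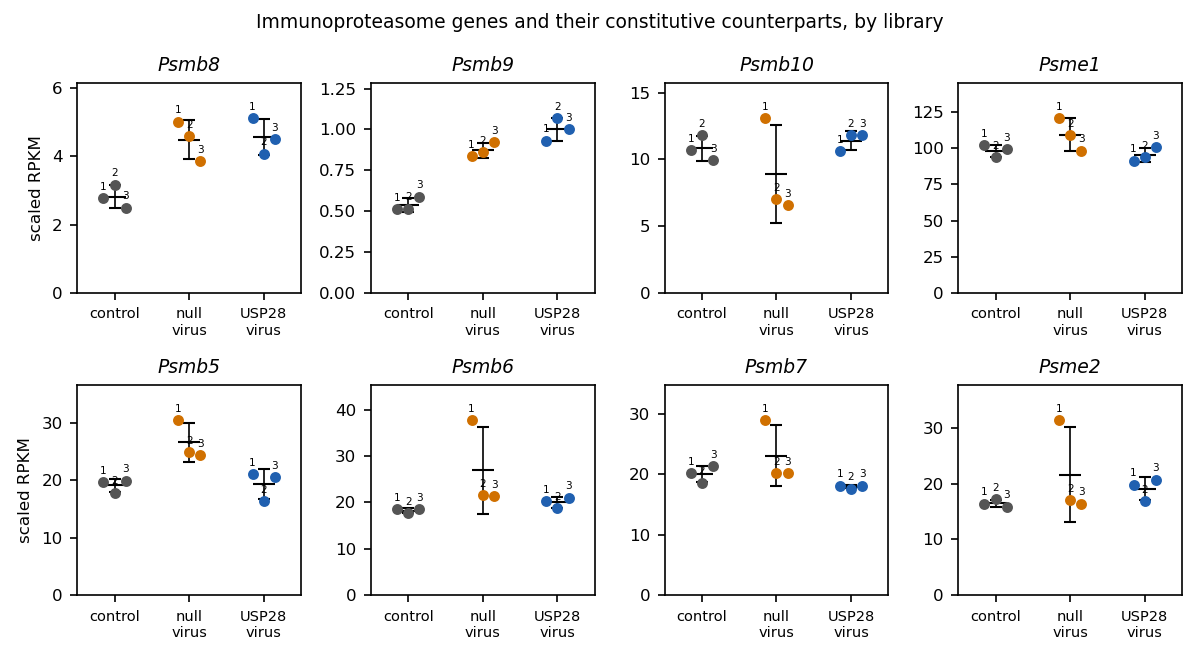
Scaled RPKM (vertical) of the 5 immunoproteasome genes and the 3 constitutive catalytic genes in each group (horizontal); points are libraries with their replicate numbers and black marks are the mean and SD. Psmb8 and Psmb9 are higher in all 6 virus-treated db/db libraries than in the controls, and Psmb10 lies at 7.02 and 6.56 in null-virus replicates 2 and 3.

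The level of each inducible catalytic subunit was set over that of its constitutive counterpart in each library, as a description with no test. Psmb8 stood at 14.2, 17.8 and 12.5% of Psmb5 in the controls, 16.5, 18.5 and 15.9% with the null virus and 24.5, 25.0 and 21.9% with the USP28 virus. Psmb9 stood at 2.78, 2.93 and 3.18% of Psmb6 in the controls, 2.22, 3.97 and 4.34% with the null virus and 4.6, 5.74 and 4.77% with the USP28 virus. Psmb10 stood at 53.1, 63.2 and 46.6% of Psmb7 in the controls, 45.4, 34.9 and 32.7% with the null virus and 58.7, 67.1 and 65.0% with the USP28 virus. In all 3 pairs the USP28-virus libraries lay above every null-virus library. No share over all genes was computed for ratios. Of single genes, 23.4% did not overlap between the viruses. With all libraries none of the paired genes passed between the viruses. Their adjusted p was 0.94 for Psmb8, 0.14 for Psmb5, 0.49 for Psmb9, 0.37 for Psmb6, 0.38 for Psmb10 and 0.28 for Psmb7. The USP28-virus libraries lay above every control for the first and second pairs and overlapped the controls for the third. For Psmb8 over Psmb5 the groups differed in the divisor: Psmb8 had the same mean within its SD with either virus (4.49 ± 0.582 and 4.57 ± 0.533 RPKM, SD, n = 3), while Psmb5 was at 26.5 ± 3.36 with the null virus and 19.3 ± 2.60 with the USP28 virus.

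**Figure D4:**
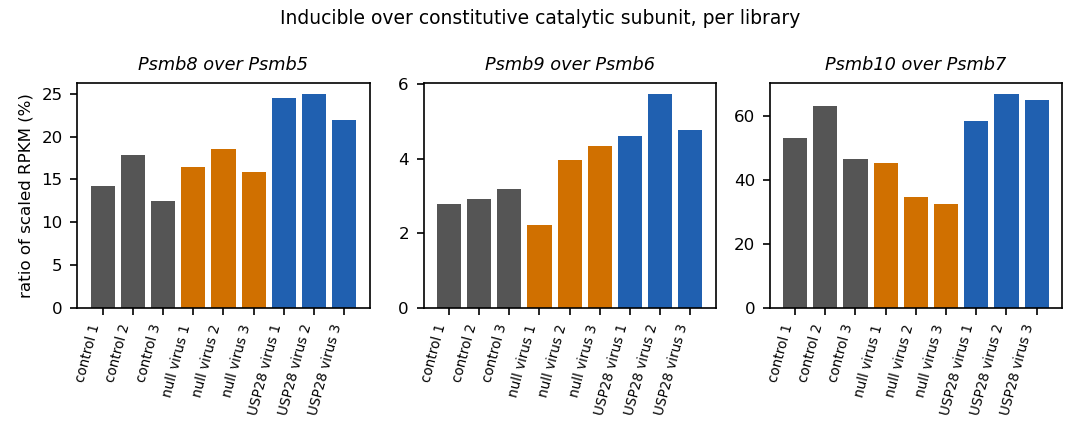
Ratio in percent of each inducible catalytic gene to its constitutive counterpart (vertical) in each library (horizontal), with controls in grey, null virus in orange and USP28 virus in blue. The USP28-virus bars are above the null-virus bars in each panel, and the vertical scales differ between panels.

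Of the 6 cap ATPases, which unfold the substrate, none passed in any comparison with all libraries. Of all genes, 22.4% passed with the null virus and 11.9% with the USP28 virus against control, and 0.553% between the viruses. With the null virus all 6 lay at or above the control mean, from 0.00 for Psmc6 to 0.30 for Psmc1, and with the USP28 virus all 6 lay below the null-virus mean. Psmc5 had the lowest p of them between the viruses: it measured 66.5, 60.4 and 60 RPKM in the controls, 82.7, 71.6 and 69.0 with the null virus and 61.2, 56.5 and 65.8 with the USP28 virus. Its null-virus libraries were the highest 3 of the 9, and the difference between the viruses was -0.28 (SE 0.11, unadjusted p = 0.028, adjusted p = 0.24). Psmc1 against control was 0.27 with the USP28 virus and passed without null-virus replicate 1 (adjusted p = 0.015).

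Of the 11 other cap subunits, Psmd4 and Psmd7 rose with the null virus, beside 10.4% of all genes. Psmd4, which binds ubiquitin chains, lies on chr3:95032694-95042614 and measured 48, 41 and 44.1 RPKM in the controls, 120, 75.7 and 68.9 with the null virus and 69.1, 59.0 and 67.3 with the USP28 virus. All 6 virus-treated db/db libraries lay above the controls, and only null-virus replicate 3 fell within the range of the USP28-virus libraries. The log2 difference from control was 0.95 with the null virus (SE 0.19, adjusted p = 0.011), the largest among members that passed. With the USP28 virus it was 0.55 (SE 0.19, adjusted p = 0.099), and this passed without null-virus replicate 1 at 0.54 (adjusted p = 0.0028), by library totals (0.035) and with the 2 groups alone (0.0055). The null-virus call held under every alternative tried, with 0.70 to 1.11 and an adjusted p of 0.0013 to 0.048.

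Psmd7, a lid subunit that partners the deubiquitinase Psmd14, lies on chr8:107580381-107588464. Its level was 108, 102 and 101 RPKM in the controls, 159, 153 and 151 with the null virus and 122, 111 and 123 with the USP28 virus. The 3 groups stood in separate ranges with USP28 virus between the others, and null-virus replicate 1 was close to the other null-virus libraries. Psmd7 was 0.58 higher than control with the null virus (SE 0.09, adjusted p = 0.0036), and this held under every alternative tried, with an adjusted p of 0.00076 to 0.023. Between the viruses the difference was -0.38 (SE 0.09, 95% interval -0.58 to -0.18, unadjusted p = 0.0021, adjusted p = 0.098). It passed without null-virus replicate 1 at -0.37 (adjusted p = 0.016) and under no other alternative tried, where the adjusted p reached 0.32.

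Psmd11, a lid subunit, measured 4.28, 3.96 and 4.39 RPKM in the controls, 4.61, 4.68 and 4.46 with the null virus and 3.78, 3.74 and 3.84 with the USP28 virus. The USP28-virus libraries were the lowest 3 and the null-virus libraries the highest 3 of the 9, with a difference of -0.27 (SE 0.08, unadjusted p = 0.011, adjusted p = 0.17). The remaining cap subunits lay between -0.05 for Psmd14, the deubiquitinase of the cap, and 0.34 for Psmd13 with the null virus, and none passed.

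**Figure D5:**
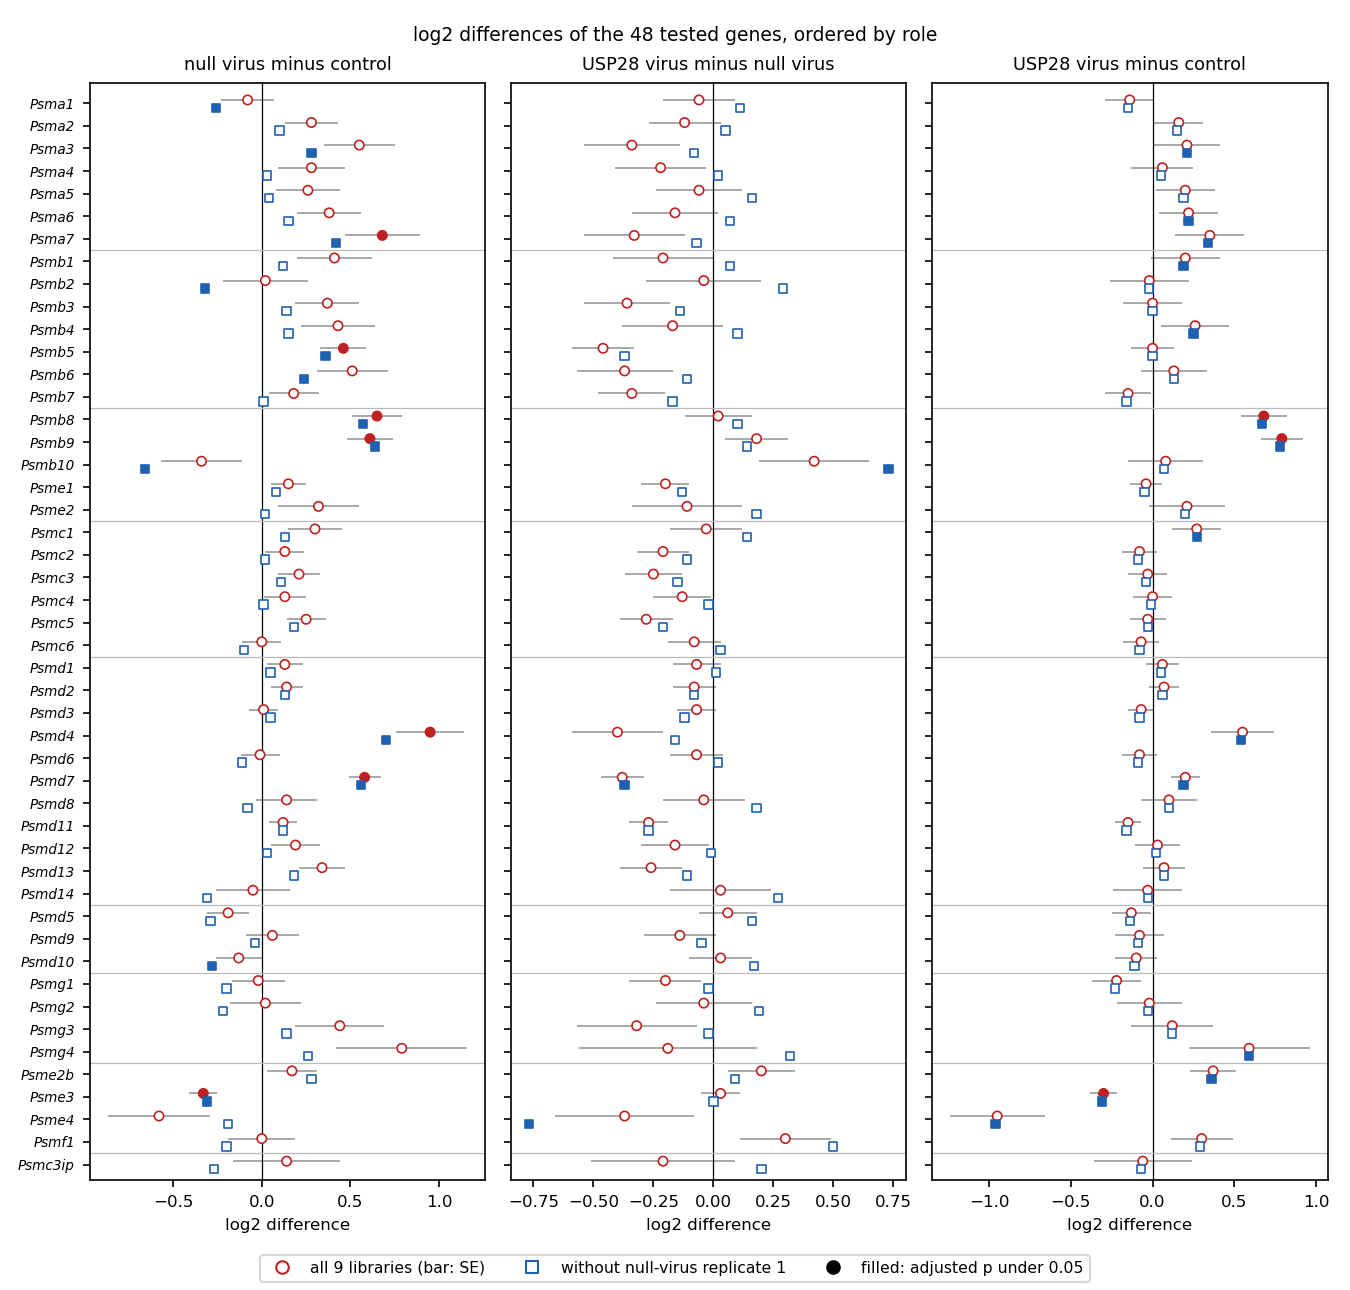
log2 differences (horizontal) of the 48 tested genes (vertical, by role) in the 3 comparisons; red circles with SE bars are the fit of all 9 libraries, blue squares the fit without null-virus replicate 1, and filled symbols have an adjusted p under 0.05. Psmd4, Psmd7, Psmb8 and Psmb9 are filled in both fits against control with the null virus, and no red circle is filled between the viruses.

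Of the 4 other regulators of the core, 1 fell with the null virus and 1 with the USP28 virus against control, in both cases Psme3. Of all genes, 12.0% were lower with the null virus and 6.24% with the USP28 virus. In each of these comparisons 2 of the 4 regulators lay below the control mean. Psme3, the nuclear activator, lies on chr11:101316213-101323537 and measured 9.80, 9.40 and 9.12 RPKM in the controls, 7.23, 7.47 and 7.77 with the null virus and 7.21, 7.98 and 7.80 with the USP28 virus. All 6 virus-treated db/db libraries lay below the controls. Psme3 fell by 0.33 with the null virus (SE 0.08, adjusted p = 0.023) and by 0.30 with the USP28 virus (SE 0.08, adjusted p = 0.049). The first call was lost without control replicate 1, 2 or 3 or null-virus replicate 2 (adjusted p = 0.071, 0.079, 0.063 and 0.058), scaled by library totals (0.078) and with the 2 groups alone (0.069). The second was lost when any library other than null-virus replicate 1 was left out, with an adjusted p of 0.060 to 0.18, by library totals (0.27), with no filter (0.10), with a replicate block (0.088) and with voom (0.051), and held without that one (adjusted p = 0.012).

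Psme4, an activator that caps the barrel without ATP, lies on chr11:30771726-30880361. It measured 20.8, 16.8 and 17.7 RPKM in the controls, 7.07, 16.3 and 15.9 with the null virus and 8.43, 9.29 and 10.8 with the USP28 virus. The USP28-virus libraries lay below every control, and so did the null-virus libraries, of which replicate 1 was the lowest of the 9. Against control the USP28-virus difference was -0.95 (SE 0.29, adjusted p = 0.067). It passed without null-virus replicate 1 (-0.96, adjusted p = 0.0011), with these groups fitted alone (adjusted p = 0.0029) and with voom (adjusted p = 0.031). Between the viruses it was -0.37 with all libraries and -0.77 without null-virus replicate 1 (adjusted p = 0.014). Psmf1, an inhibitor of the core, was at 0.30 and Psme2b, a retrogene copy of Psme2, at 0.37 with the USP28 virus against control, neither passing.

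None of the 7 assembly chaperones passed with all libraries, beside 22.4% of all genes with the null virus and 11.9% with the USP28 virus against control. Psmg4, which helps to build the alpha ring, measured 9.23, 9.47 and 11.6 RPKM in the controls, 36.1, 11.4 and 12.7 with the null virus and 14.9, 15 and 15.8 with the USP28 virus. Its USP28-virus libraries lay above every control, with a log2 difference of 0.59 (SE 0.37, adjusted p = 0.33) that passed without null-virus replicate 1 at 0.59 (adjusted p = 0.0034). Psmg3 was at 0.44 with the null virus, Psmd5 at -0.19 and Psmd10 at -0.13. Psmd10 passed without null-virus replicate 1, when it fell by 0.28 (adjusted p = 0.036). Psmc3ip, which acts in meiotic recombination and is no proteasome gene, measured 7.28 RPKM in null-virus replicate 1 and 2.93 to 3.97 in the other 8 libraries.

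Partner genes of the cap, which include receptors, deubiquitinases and shuttles, gave 3 higher and 1 lower of 17 with the null virus against control, none between the viruses and 1 lower with the USP28 virus against control. Over all genes the higher and lower shares were 10.4% and 12.0% with the null virus and 5.69% and 6.24% with the USP28 virus against control. Without null-virus replicate 1 the counts were 4 higher and 1 lower, then 3 lower between the viruses, then 2 higher and 3 lower, beside 31.6%, 6.66% and 29.2% of all genes in either direction. Uchl5, a deubiquitinase bound to the cap, measured 8.77, 8.29 and 8.35 RPKM in the controls, 19.0, 16.2 and 14.1 with the null virus and 10.5, 8.82 and 11 with the USP28 virus. It rose by 0.94 with the null virus (SE 0.13, adjusted p = 0.0023), and the USP28-virus libraries stood between the other groups (-0.69 from the null virus, adjusted p = 0.058). The difference between the viruses passed with voom (-0.7, adjusted p = 0.029) and without null-virus replicate 1 (-0.59, adjusted p = 0.018). It passed under no other alternative tried, where the adjusted p reached 0.22. Shfm1, a small lid subunit, rose by 0.71 (adjusted p = 0.042) and Akirin2, which brings proteasomes into the nucleus, by 0.39 (adjusted p = 0.048). Without null-virus replicate 1 Shfm1 was at 0.43 (adjusted p = 0.0031) and Akirin2 lost its call (0.28, adjusted p = 0.059). Both calls were also lost without any 1 control or USP28-virus library, and that of Akirin2 without null-virus replicate 3, with adjusted p up to 0.12. Ube3c, a ubiquitin ligase on the proteasome, fell by 1.15 with the null virus (adjusted p = 0.0040) and by 0.84 with the USP28 virus (adjusted p = 0.023), the latter call being lost without any 1 control or USP28-virus replicate 1 or 3 (adjusted p = 0.053 to 0.099).

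Of 9 genes of the Nfe2l1 route, 4 rose with the null virus, beside 10.4% of all genes. Between the viruses 1 fell, beside 0.213%, and 2 rose with the USP28 virus against control, beside 5.69% of all genes. Without null-virus replicate 1, 6 rose with the null virus, beside 2195 of all 14104 genes. Maff, a small Maf partner, measured 2.93, 3.62 and 4.42 RPKM in the controls, 7.11, 8.13 and 9.80 with the null virus and 4.09, 3.49 and 4.08 with the USP28 virus. It rose by 1.18 with the null virus (SE 0.17, adjusted p = 0.0029) and was lower by 1.07 on the log2 scale with the USP28 virus (log2 -1.07, SE 0.17, adjusted p = 0.041), the 1 gene of these lists that passed between the viruses. Mafk was at 0.67 (adjusted p = 0.0040), Nfe2l2 at 0.50 (0.034) and Keap1, which holds Nfe2l2 down, at 0.33 (0.039). With the USP28 virus against control Mafk rose by 0.77 (adjusted p = 0.0053) and Nfe2l2 by 0.62 (0.025). The call of Maff between the viruses was lost without any 1 library other than control replicate 1 and null-virus replicate 1 (adjusted p = 0.057 to 0.19). With the null virus Nfe2l2 lost its call without any 1 control or USP28-virus replicate 1 or 2 (up to 0.099), and Keap1 without any 1 library other than null-virus replicates 1 and 3 (up to 0.12). With the USP28 virus that of Nfe2l2 was lost without any 1 control or USP28-virus library (0.056 to 0.093). Of 5 ubiquitin and E1 genes tested, Ubb rose by 0.58 with the null virus (adjusted p = 0.0056) and by 0.44 with the USP28 virus (adjusted p = 0.027), the latter lost without any 1 control or USP28-virus library (adjusted p = 0.052 to 0.12).

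Of 11 interferon and peptide-loading genes, 7 rose and 1 fell with the null virus against control, none passed between the viruses, and 6 rose with the USP28 virus against control. The shares of all genes were 10.4% higher and 12.0% lower with the null virus and 5.69% higher with the USP28 virus. Without null-virus replicate 1 the counts higher were 6 and 9, beside 2195 and 1959 of all 14104 genes higher. Irf7, an interferon-driven transcription factor, measured 2.12, 1.87 and 1.32 RPKM in the controls, 4.04, 6.99 and 5.49 with the null virus and 5.93, 4.91 and 4.73 with the USP28 virus. It rose by 1.57 (SE 0.22, adjusted p = 0.0027) and 1.52 (SE 0.22, adjusted p = 0.0065), and both calls held under every alternative tried. B2m, the light chain of MHC class I, rose by 0.71 (adjusted p = 0.0054) and 0.63 (0.015). Tap1 rose by 0.46 (adjusted p = 0.033) and 0.88 (0.0056), and Stat2, which carries the interferon signal, by 0.56 (0.021) and 0.93 (0.0063). Erap1, which trims peptides, fell by 0.59 with the null virus (adjusted p = 0.024). With the null virus the calls were lost for Tap1 without control replicate 1 or 3, any 1 USP28-virus library or null-virus replicate 2 (adjusted p = 0.053 to 0.099), for Stat2 without control replicate 1 or 3 or null-virus replicate 2 or 3 (0.051 to 0.072), and for Erap1 without control replicate 1 or 2 or null-virus replicate 2 (0.052 to 0.085). With the USP28 virus the call of B2m was lost on leaving out any 1 USP28-virus library or control replicate 2 or 3 (0.052 to 0.070). The lists' medians with the null virus were 0.19 for cap partners, 0.26 for the Nfe2l1 route, 0.55 for ubiquitin genes and 0.46 for interferon and peptide loading, beside 0.01 for all genes.

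Immune cells express more immunoproteasome than heart muscle, and their markers are given beside Psmb8 and Psmb9. Counts of markers called are to be set beside 10.4% of all genes higher and 12.0% lower with the null virus, and 5.69% higher and 6.24% lower with the USP28 virus, each against control. None of the 8 T and NK cell markers passed the filter, with a highest level of 0.343 RPKM and sums of 0.215 to 0.474 in the controls, 0.281 to 0.564 with the null virus and 0.359 to 0.919 with the USP28 virus. Of 8 macrophage markers 3 fell with the null virus and 1 with the USP28 virus against control, and their sum was 33.9 to 42.7, then 25.4 to 31.8, then 25.1 to 31.2 RPKM. The 6 B cell markers summed to 1.19 to 1.43, 0.614 to 1.28 and 1.44 to 1.99 RPKM, and the 6 neutrophil markers to 10.1 to 18, 2.31 to 3.69 and 0.638 to 2.09. Of 8 endothelial markers 3 rose with the null virus and 2 with the USP28 virus, with sums of 78.9 to 92.4, 97.4 to 122 and 106 to 123 RPKM. Of 8 cardiomyocyte markers 2 fell with the null virus and 1 with the USP28 virus. Fibroblast markers gave 1 higher and 4 lower of 8, then 1 and 1, and pericyte and smooth muscle markers 1 and 1 of 8, then 2 higher. Without null-virus replicate 1, 2195 of all 14104 genes were higher and 2265 lower with the null virus. With the USP28 virus these counts were 1959 and 2157. In that fit cardiomyocyte markers gave 1 higher and 5 lower, then 4 lower. Endothelial markers gave 5 and 1, then 5 higher, and macrophage markers 3 lower, then 2 lower. Fibroblast markers gave 2 and 4, then 1 and 2, and pericyte and smooth muscle markers 2 and 2, then 3 and 1. The part of cell make-up in the members' differences was not tested. In whole tissue, fewer cells of a type and less RNA per cell cannot be told apart.

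Promoters of members that passed are shown because Nfe2l1 and Nfe2l2, with small Maf proteins, bind the antioxidant response element, whose core was searched as TGACNNNGC or TGAGNNNGC on both strands. The element had a match in 18 of 45 windows of 42 members, or 40.0%, beside 27.8% of 32851 windows of all genes in the RefSeq table (GRCm38.p6), each window running from 250 bases before a start to 50 after it. By role it matched 5 of 8 alpha-ring windows, 3 of 4 of the constitutive beta ring, 2 of 6 of the ATPases and none of 6 of the immunoproteasome. It matched 3 of 9 windows of the other cap subunits, 2 of 3 of the cap chaperones and 1 of 3 of the core chaperones. Of the other regulators it matched 1 of 4, of the thymus form 0 of 1 and of Psmc3ip, counted in the 18, 1 of 1. An interferon-stimulated response element, searched on both strands as GAAA repeated after any 2 bases, was added after the values were seen and matched 5 of 45 member windows, or 11.1%, beside 3.44% of all. These were in Psmb3, Psmd4, Psmd9, Psme1 and Psmg4. The windows printed were chosen after the values were seen, from members that passed. Of these, Psme3 holds no match to either element and is not printed, and Psmd7 has no entry. The windows run 5′ to 3′ along the gene, in lower case with matches in capitals. Psma7 (chr2:180042415-180042714, minus strand) holds an antioxidant element at bases 42 to 50 after the start.
Psma7: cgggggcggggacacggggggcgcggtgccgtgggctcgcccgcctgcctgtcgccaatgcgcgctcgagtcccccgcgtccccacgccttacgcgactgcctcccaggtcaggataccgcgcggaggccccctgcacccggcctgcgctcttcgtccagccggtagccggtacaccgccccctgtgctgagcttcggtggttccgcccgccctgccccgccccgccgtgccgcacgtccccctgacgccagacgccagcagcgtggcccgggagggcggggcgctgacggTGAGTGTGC
Psmb5 (chr14:54617946-54618245, minus strand) holds one at bases -47 to -39.
Psmb5: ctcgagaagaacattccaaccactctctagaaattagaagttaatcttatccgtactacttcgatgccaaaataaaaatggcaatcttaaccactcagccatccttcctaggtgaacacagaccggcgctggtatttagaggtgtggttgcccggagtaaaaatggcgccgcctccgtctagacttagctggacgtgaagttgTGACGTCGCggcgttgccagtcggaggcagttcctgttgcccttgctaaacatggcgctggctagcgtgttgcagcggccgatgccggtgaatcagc
Psmd4 (chr3:95042565-95042864, minus strand) holds no antioxidant match and an interferon element, on the opposite strand, at -80 to -71.
Psmd4: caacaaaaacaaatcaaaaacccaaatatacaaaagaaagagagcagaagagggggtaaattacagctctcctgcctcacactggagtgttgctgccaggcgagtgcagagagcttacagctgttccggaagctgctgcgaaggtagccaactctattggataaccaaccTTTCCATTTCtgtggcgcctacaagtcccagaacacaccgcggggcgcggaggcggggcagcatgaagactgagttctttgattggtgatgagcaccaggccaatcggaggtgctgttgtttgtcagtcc
Psmb8 (chr17:34197945-34198244, plus strand) and Psmb9 (chr17:34187281-34187580, minus strand) hold no match to either. Both windows lie inside the spans of the genes given above (chr17:34197721-34201454 for Psmb8, chr17:34181988-34187764 for Psmb9). They do not cover the bases before those spans.
Psmb8: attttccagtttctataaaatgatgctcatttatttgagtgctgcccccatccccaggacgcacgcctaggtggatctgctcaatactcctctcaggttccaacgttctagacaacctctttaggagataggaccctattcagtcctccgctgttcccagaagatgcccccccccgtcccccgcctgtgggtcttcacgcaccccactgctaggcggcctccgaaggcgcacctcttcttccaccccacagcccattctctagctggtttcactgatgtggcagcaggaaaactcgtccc
Psmb9: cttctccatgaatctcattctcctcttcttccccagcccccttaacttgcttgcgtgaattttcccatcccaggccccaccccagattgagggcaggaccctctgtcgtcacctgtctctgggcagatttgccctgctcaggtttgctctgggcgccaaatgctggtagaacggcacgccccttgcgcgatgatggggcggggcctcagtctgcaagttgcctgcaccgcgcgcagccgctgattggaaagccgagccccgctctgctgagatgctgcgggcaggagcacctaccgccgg
A match is a description of these letters and not a bound site.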

How the data were processed

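The authors deposited 1 table of RPKM (reads per kilobase of gene, scaled to the reads counted in the library) for 30128 genes in 9 columns. HISAT2 and DESeq2 are listed without version or role, per the submitters' processing notes, which give the human build GRCh38 although the table's symbols and positions are mouse. All 50 member lengths equal their listed exons, and 39 spans are identical to GENCODE M21 (GRCm38). The sources used here do not give the counter or its strand setting. Per the labels' protocols libraries were poly(A)-selected and directional.

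RPKM times length came out as whole reads for 99.9839% of values above 0, within 0.01 reads, which gave reads and depths. 11 genes hold other values, none a member.

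RPKM were scaled by a trimmed mean of M values (30% of ratios, 5% of levels) over the kept genes. This gene set was chosen after call counts under several scalings had been seen, and all genes are an added alternative. The test was limma 3.58.1 in R 4.3.3 (trended, robust prior) on log2(scaled RPKM + 0.1), with all 9 libraries in 1 fit of 3 groups, for 14104 genes with at least 0.5 RPKM in at least 3 libraries. P-values were adjusted by Benjamini-Hochberg over these genes, with a threshold of 0.05. This scale understates changes of low genes. The depth limits low genes most: 60 reads are the fewest behind a tested member. The fit was tested on simulated data.

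All 9 values are given for the immunoproteasome genes, Psmb5 to Psmb7, and members passing with the lowest p (the 4 with the lowest p where fewer than 4 passed), and for some others named for their pattern after their values were seen. Up to 4 passing genes were named per pathway list. Members and lists were chosen with earlier results of these data known. Of 20 cap partner names, 17 were found in the table. Figures used matplotlib 3.10.9.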

Additional observations from a re-analysis of the deposited data

How the results depend on the processing

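For the named members, 600 of 660 values under alternatives kept direction and side of the threshold, 40 lost a call, 8 gained one and 12 turned sign, none of these 12 passing. Many of these values belong to differences that had no call to lose. With the USP28 virus against control, Psme3 lost its call in 12 of 20 alternatives and Psmb8 in 4. With the null virus, Psma7 lost it in 9, Psmb5 in 7, Psme3 in 6, and Psmb8 and Psmb9 in 1 each. Null virus against control called 3154 genes (1468 higher, 1686 lower), 2090 with no filter, 1657 with the 2 groups alone and 1459 to 4460 leaving out 1 library. It called 7 members, 3 with the 2 groups alone and 3 to 13 leaving out 1 library. USP28 against null virus called 78 genes, 31 scaled by library totals, 10 with no filter, 195 with voom, 0 with the 2 groups alone and 0 to 939 leaving out 1 library (939 without null-virus replicate 1), and 0 to 3 members. USP28 virus against control called 1682 genes, 921 by library totals, 926 with no filter, 3882 with the 2 groups alone and 366 to 4116 leaving out 1 library. It called 3 members, 11 with the 2 groups alone and 1 to 14 leaving out 1 library. Null-virus replicate 1 is in neither group of USP28 virus against control and enters it through the shared spread and scaling. In that comparison Psmg4 was at 0.59 both with that library (SE 0.37) and without it (SE 0.09). The cause of the changes in these call counts was not tested. A trimmed mean over all genes, added after call counts were seen, gave 3160, 60 and 1671 genes and 7, 0 and 3 members. Leaving out genes with values other than whole reads, also added later, gave 3145, 70 and 1667.

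Signs turned between the viruses for Psmb8 (-0.08 to 0.10 leaving out 1 library) and Psme2 (-0.29 to 0.18, the latter without null-virus replicate 1). Against control with the USP28 virus they turned for Psme1 (0.01 by library totals) and Psmb5 (-0.01 by median of ratios and by the trimmed mean over all genes, -0.06 to 0.12 leaving out 1 library).

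Same-numbered libraries correlated at -0.0291 to 0.0601 in their deviations from group means, and not every library correlated best with its own number, so the numbers were not taken as pairs. A replicate block called 0 genes between the viruses.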
